A study of Arabidopsis thaliana with 56 samples.

Results

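The AITR family of ABA-induced repressors was followed through 56 RNA-Seq libraries by 5 genes, AT5G50360, AT3G27250, AT5G40790, AT3G48510 and AT5G63350, out of 33016 genes in each count table. AT5G50360 was chosen because it was strongly induced by ABF1 and ABF3 in these same libraries, and the others as its relatives, so the ABF1 and ABF3 values of all 5 genes are given as a description, with no test. The libraries came from the TARGET assay, in which a TF fused to a dexamethasone-responsive domain is expressed transiently in isolated root cells and is let into the nucleus by dexamethasone. Of the 56 libraries, 47 carried 1 of 13 TFs and 9 carried the empty vector (EV). The comparisons ask which TFs raised or lowered each gene against EV cells of the same batch.

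All libraries were made from root protoplasts of Col-0 seedlings 10 days old. All of them, EV included, were treated with 35 µM cycloheximide, which blocks the synthesis of new proteins, and then with 10 µM dexamethasone. ABF1, ZAT6, FBH3 and HSFA6A were assayed in batch 1 beside EV. In batch 2, EV stood beside MYBR1, MYB3, DIV2, WRKY33, GBF2 and again HSFA6A. In batch 3, EV stood beside ABF3, HB7, DREB2A, GBF3 and again FBH3 and GBF2. Each group had 3 libraries, except ABF3 with 2. The labels name the batches without saying what a batch was. By the study's methods, cells of 1 transfection were divided into wells to give the replicates, so the spread between them, and every p-value here, leaves out the variation between transfections.

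Abscisic acid (ABA) is the hormone through which plants respond to drought and salt. It binds receptors of the PYR/PYL family, which then inhibit clade A PP2C phosphatases and so release SnRK2 kinases. The kinases phosphorylate bZIP factors of the ABF and ABI5 group, which bind ABA-responsive elements built around the word ACGTG in the promoters of ABA-responsive genes. The AITR proteins are transcription repressors whose genes are switched on by ABA and which feed back on ABA signaling. No role that sets 1 of the 5 genes apart from the others is given here, as the files annotate none.

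The 5 genes have no overlapping neighbor in TAIR10.1, whose nuclear sequence is that of the TAIR10 assembly the authors used. AT5G50360 lies on chromosome 5 from 20505089 to 20506354 on the minus strand. AT5G40790 (16330041 to 16331276) and AT5G63350 (25379931 to 25381317) are on the minus strand of the same chromosome. On chromosome 3, AT3G27250 runs from 10061009 to 10062870 on the plus strand and AT3G48510 from 17967354 to 17968590 on the minus strand. AT3G27250 has 2 annotated transcripts, of which 1 is spliced after the coding part, the other 4 genes have a single exon, and the coding lengths run from 849 to 912 bases. In a translated comparison of the coding sequences, the longest aligned segment joined AT3G48510 and AT5G63350, with 71.8% identical residues over 85 codons. AT5G50360 was closest to AT5G63350, with 69.4% identity over 62 codons, and AT5G40790 shared no segment longer than 38 codons with another of the 5.

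The 5 promoters are shown because ABF1 and ABF3 belong to the bZIP group that binds ACGTG words. Each runs from 270 bases before the annotated start to 30 after it, read in the direction of the gene, with every ACGTG on either strand in capitals.
AT5G50360: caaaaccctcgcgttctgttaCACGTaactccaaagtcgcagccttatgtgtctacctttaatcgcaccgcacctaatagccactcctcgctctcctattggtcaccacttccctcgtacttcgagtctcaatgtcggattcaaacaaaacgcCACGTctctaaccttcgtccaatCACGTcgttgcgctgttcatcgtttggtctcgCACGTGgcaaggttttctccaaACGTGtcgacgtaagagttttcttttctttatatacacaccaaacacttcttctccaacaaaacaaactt
AT3G27250: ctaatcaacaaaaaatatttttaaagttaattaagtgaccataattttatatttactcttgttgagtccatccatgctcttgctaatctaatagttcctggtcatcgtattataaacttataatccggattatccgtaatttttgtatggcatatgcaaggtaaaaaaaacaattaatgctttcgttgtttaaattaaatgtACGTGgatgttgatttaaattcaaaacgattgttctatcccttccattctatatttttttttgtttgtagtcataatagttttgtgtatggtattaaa
AT5G40790: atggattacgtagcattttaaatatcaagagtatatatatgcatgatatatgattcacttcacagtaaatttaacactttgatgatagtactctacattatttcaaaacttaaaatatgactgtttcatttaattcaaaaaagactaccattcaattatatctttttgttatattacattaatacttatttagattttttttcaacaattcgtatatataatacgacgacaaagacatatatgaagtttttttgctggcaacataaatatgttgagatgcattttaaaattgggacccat
AT3G48510: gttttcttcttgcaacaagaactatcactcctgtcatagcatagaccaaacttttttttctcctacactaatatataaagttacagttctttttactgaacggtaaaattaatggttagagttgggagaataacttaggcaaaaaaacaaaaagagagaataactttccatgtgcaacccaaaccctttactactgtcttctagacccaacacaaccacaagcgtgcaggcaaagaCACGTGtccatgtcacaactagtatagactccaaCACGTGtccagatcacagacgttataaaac
AT5G63350: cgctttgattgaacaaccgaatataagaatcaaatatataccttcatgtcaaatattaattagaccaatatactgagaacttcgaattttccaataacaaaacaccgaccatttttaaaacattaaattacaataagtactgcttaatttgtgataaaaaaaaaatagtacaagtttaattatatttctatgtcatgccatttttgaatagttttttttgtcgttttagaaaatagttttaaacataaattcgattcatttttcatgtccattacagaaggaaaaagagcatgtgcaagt
The windows are chr5:20506325-20506624, chr3:10060739-10061038, chr5:16331247-16331546, chr3:17968561-17968860 and chr5:25381288-25381587 of TAIR10.1, in that order.

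AT5G50360 held ACGTG at 6 positions, AT3G48510 at 4, AT3G27250 at 1, and AT5G40790 and AT5G63350 at none. The palindrome CACGTG, the G-box, counts as ACGTG at 2 overlapping positions, and it occurred once in AT5G50360 and at 2 places in AT3G48510, of which the second lies across the annotated start. Among 27443 promoters of protein-coding genes cut the same way, 26.3% held ACGTG at least once, 3.66% held it at 3 or more positions and 7.51% held CACGTG. A small gene model, AT5G50361, lies within the AT5G50360 window on the same strand, from 20506381 to 20506578, and 5 of the 6 positions fall inside it. Across the 500 bases before the start, the counts were 8 for AT5G50360, 2 for AT3G27250, 2 for AT3G48510, 1 for AT5G40790 and 0 for AT5G63350, and 35.5% of all promoters held at least 1. Of the other words searched on both strands, AATNATT, which homeodomain-leucine zipper factors bind, was in none of the 5 windows and in 34.4% of all windows. TTGAC, the core of the WRKY element, occurred once, in AT5G63350, and in 50.4% of all promoters. These matches are letters in a window, and binding was not measured here.

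**Figure D1:**
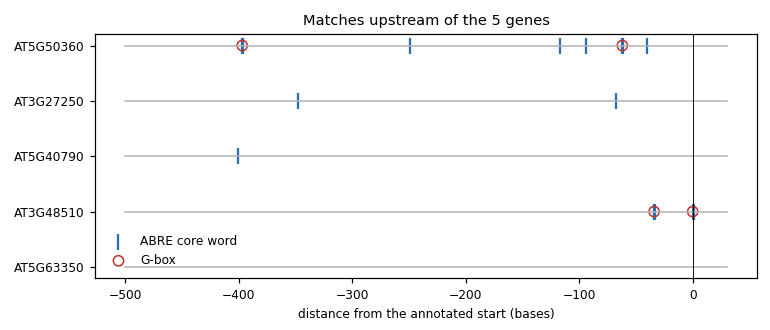
Matches to ACGTG (blue ticks) and CACGTG (red circles), either strand, from 500 bases before to 30 bases after the annotated start of each gene, with distance in bases on the horizontal axis. AT5G50360 has the most ticks, 8 before the start, and AT5G63350 has none.

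The libraries held 8619133 to 29763752 counts (median 17460033), of which 4 loci near ribosomal RNA genes took 0.996% to 78.1%. Each TF's own gene lay above every EV library of its batch in 16 of 16 groups, and its group mean was at least 2.04 times the EV mean. Of 8 root cell markers, all were measured, 2 had a count in every library and 6 were at 0 in at least 1 library, with a summed level of 18 to 117 CPM (counts scaled to library size with TMM factors), against 0 to 10.7 CPM for 5 leaf mesophyll markers. In sorted cells of mixed types, fewer cells of a type and less RNA per cell cannot be told apart.

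In EV cells, the 5 genes were expressed at low levels and were unequal. Per kilobase of exon, AT5G50360 had the highest mean level over the 9 EV libraries, 2.63 CPM per kb, followed by AT5G63350 with 1.46, AT3G48510 with 0.707, AT3G27250 with 0.196 and AT5G40790 with 0.00923. AT5G50360 and AT5G63350 had counts in all 9 EV libraries, AT3G48510 was at 0 in 1, AT3G27250 in 2 and AT5G40790 in 8. AT5G50360 measured 7.08, 3.43 and 4.61 CPM in batch 1, 3.38, 1.12 and 1.38 CPM in batch 2, and 2.15, 2.90 and 3.97 CPM in batch 3. Its EV libraries overlapped between batches 1 and 3 and between batches 2 and 3, and the lowest library of batch 1 lay just above the highest of batch 2.

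AT3G48510 measured 1.85, 2.08 and 2.03 CPM in the EV libraries of batch 1, 0.276, 0.468 and 0.525 CPM in those of batch 2, and 0, 0.424 and 0.224 CPM in those of batch 3. Batch 1 was thus above the other EV libraries without overlap, and the share of all genes with such a gap was not counted. AT5G63350 measured 2.57, 3.43 and 3.67 CPM in batch 1, 1.79, 1.12 and 1.25 CPM in batch 2, and 0.486, 0.707 and 3.20 CPM in batch 3, where the third replicate, with 100 counts, stood apart from the 7 and 20 counts of the others. By edgeR's quasi-likelihood test across the 3 batches, 0 of the 3 members that could be tested differed at a Benjamini-Hochberg FDR under 0.05, while 11.7% of all genes did. AT3G48510 came nearest, with log2 differences of -2.22 in batch 2 and -3.08 in batch 3 against batch 1 (edgeR FDR = 0.115). It was the 1 member with an unadjusted p under 0.05, a p that 4793 of 18732 genes tested had. It was called by DESeq2 (FDR = 0.00744) and by edgeR without EV batch 3 replicate 1 (FDR = 0.0182), so its call between batches rested on the tool and on that library.

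**Figure D2:**
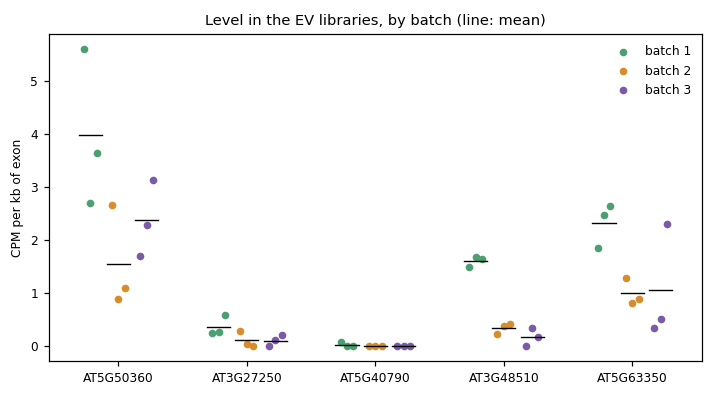
Level of the 5 genes in the 9 EV libraries, in CPM per kb of exon, with points for libraries, colors for batches and lines for batch means. AT3G48510 is near 1.6 CPM per kb in batch 1 and below 0.5 in the other batches, and AT5G40790 is at or near 0 throughout.

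AT5G50360 had its highest levels with ABF1 and ABF3. With ABF1 it measured 89.4, 99.1 and 44.7 CPM (2280, 2028 and 774 counts), against 7.08, 3.43 and 4.61 CPM (138, 28 and 59 counts) in EV of batch 1. With ABF3 it measured 107 and 101 CPM (2781 and 3032 counts), against 2.15, 2.90 and 3.97 CPM in EV of batch 3. All 5 ABF libraries lay above all other 51, the highest of which was a ZAT6 library at 11.8 CPM. The means stood at 77.7 ± 29.0 CPM (SD, n = 3) with ABF1 and 104 ± 4.24 CPM (SD, n = 2) with ABF3, 15.4 and 34.5 times the EV means of 5.04 ± 1.87 and 3.0 ± 0.912 CPM (SD, n = 3 each). On the log2 scale the fitted differences were 3.88 ± 0.40 and 5.04 ± 0.38 (SE). ABF1 replicate 3, the lowest of the ABF libraries for AT5G50360, was also the lowest for the ABF1 transcript itself, with 2657 CPM against 4415 and 4312 CPM, and had 9.36% of its counts in the loci near ribosomal RNA genes against 32.2% and 30.1%. The part of these in its lower level was not tested. Without each of the ABF or EV libraries in turn, the difference ran from 3.68 to 4.24 with ABF1 and from 4.87 to 5.30 with ABF3.

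Per kilobase of exon, the mean over the 5 ABF libraries was 69.6 CPM for AT5G50360, 5.44 for AT5G63350, 2.98 for AT3G48510, 1.33 for AT3G27250 and 0.0557 for AT5G40790. AT5G63350 measured 6.66, 6.40 and 6.35 CPM with ABF1, against 2.57, 3.43 and 3.67 CPM in EV, a log2 difference of 1.00 ± 0.57 (SE). With ABF3 it measured 8.02 and 10.3 CPM against 0.486, 0.707 and 3.20 CPM, a log2 difference of 2.57 ± 0.64. All ABF libraries lay above all EV libraries of their batch in both cases. The ABF3 difference was 3.87 without EV batch 3 replicate 3, the high EV library, and 2.18 without replicate 1.

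AT3G48510 measured 4.19, 3.91 and 2.71 CPM with ABF1, against 1.85, 2.08 and 2.03 CPM in EV, a log2 difference of 0.84 ± 0.72 (SE). With ABF3 it measured 4.68 and 2.92 CPM, against 0, 0.424 and 0.224 CPM, a log2 difference of 3.97 ± 0.94. Its levels in the ABF1 and ABF3 libraries overlapped, and the larger ABF3 difference stood against a lower EV level in batch 3.

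AT3G27250 measured 2.67, 2.59 and 0.231 CPM with ABF1 (68, 53 and 4 counts), against 0.462, 0.490 and 1.09 CPM in EV (9, 4 and 14 counts), a log2 difference of 1.40 ± 1.25 (SE). The ABF1 and EV libraries overlapped, since ABF1 replicate 3 was below all 3 EV libraries. With ABF3 it measured 3.42 and 3.52 CPM (89 and 106 counts), against 0, 0.212 and 0.384 CPM (0, 6 and 12 counts), a log2 difference of 3.96 ± 1.31. AT5G40790 had 2, 0 and 0 counts with ABF1 and 0 and 8 counts with ABF3, against 2, 0 and 0 and 0, 0 and 0 counts in EV of those batches, and did not pass the filter on low counts in any comparison.

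In numbers, 4 of 5 members passed the filter on low counts in each ABF comparison. Their median difference was 1.20 with ABF1 and 3.97 with ABF3, beside -0.01 and 0.00 over all genes tested. Without overlap, 3 members were above EV with ABF1, beside 8.7% of all genes tested, and 4 with ABF3, beside 16.2%. Against the other TF libraries of batch 3 in place of EV, the ABF3 difference of AT3G48510 was 2.07 ± 0.83 (SE) instead of 3.97. Nothing is read from these counts and medians, as the members were chosen from these comparisons and a gene as low in EV as AT3G27250 can pass the filter through the libraries where it is high.

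**Figure D3:**
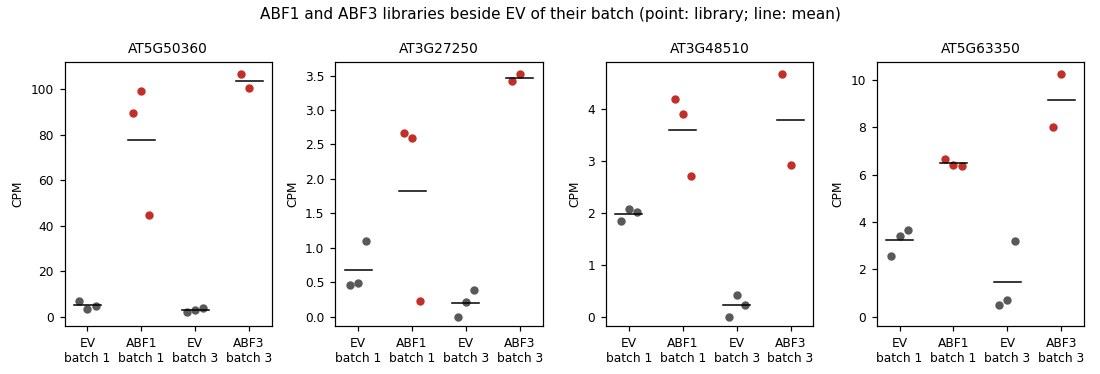
CPM of 4 members in the ABF1 and ABF3 libraries (red) and in the EV libraries of the same batch (grey), with points for libraries, lines for means and a separate linear axis for each gene. The 5 ABF libraries of AT5G50360 lie between 44.7 and 107 CPM, and ABF1 replicate 3 of AT3G27250 lies below its EV libraries.

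Among the 11 TFs other than ABF1 and ABF3, none changed a member past the threshold in the main edgeR fits. These TFs gave 14 comparisons, as FBH3, GBF2 and HSFA6A were each assayed in 2 batches, and 50 of the 70 member comparisons passed the filter on low counts. By edgeR's quasi-likelihood test, 0 of the 50 passed an FDR of 0.05, and 6 had an unadjusted p under 0.05. Over all genes tested, such a p was held by 1032 of 18869 with HSFA6A in batch 1, the fewest, to 5285 of 18899 with DIV2, the most. DESeq2, the tool the authors used, called 4 of these 6 member comparisons, all higher than EV. Among the 4 is AT3G27250 with MYBR1, a gene that did not pass the filter in the EV libraries alone. The share of all genes that DESeq2 called was not counted. Of all genes tested, edgeR called 0.0106% in either direction with HSFA6A, 3.19% with ZAT6 and 6.24% with FBH3 in batch 1. In batch 2 the share was 2.53% with HSFA6A, 6.22% with WRKY33, 10.6% with MYB3, 11.9% with MYBR1, 12.8% with GBF2 and 18.1% with DIV2. In batch 3 it was 0.0157% with GBF3, 2.72% with DREB2A, 4.32% with FBH3, 5.52% with HB7 and 8.85% with GBF2. The tests of different TFs in 1 batch share their EV libraries.

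AT5G50360 was tested in all 14 of these comparisons and had a positive log2 difference in 12, between -0.36 and 1.57. The largest was with MYBR1, an R2R3 MYB factor of abiotic stress responses, where it measured 8.66, 3.84 and 4.79 CPM against 3.38, 1.12 and 1.38 CPM in EV. The MYBR1 libraries lay above the EV libraries without overlap, as 15.1% of all genes did, and the log2 difference was 1.57 ± 0.51 (SE, edgeR FDR = 0.0625, 3 against 3 libraries of the batch). The difference was called without EV batch 2 replicate 1, the highest of its EV libraries (2.21, edgeR FDR = 0.0230), and by DESeq2 (1.59, FDR = 0.0189). It was also called against EV of batch 2 alone (1.58, edgeR FDR = 0.0448) and in a single model over all libraries (1.57, edgeR FDR = 0.0193). The smallest difference over all its alternatives was 0.78, and the FDR ran from 0.00592 to 0.463.

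With GBF2, a bZIP factor that binds the G-box, AT5G50360 measured 3.07, 4.79 and 5.93 CPM in batch 2 against the same EV values, and the lowest GBF2 library fell below the highest EV library. The log2 difference was 1.23 ± 0.56 (SE, edgeR FDR = 0.193). It was 1.86 without EV batch 2 replicate 1, and 0.39 with the remaining TFs of the batch as the control, and the FDR ran from 0.0597 to 0.684 over the alternatives. In batch 3, GBF2 libraries measured 7.74, 5.01 and 4.09 CPM, all above the EV libraries, as were 14.5% of all genes, with a log2 difference of 0.89 ± 0.47 (edgeR FDR = 0.277). GBF3, a related G-box factor, gave 6.92, 4.06 and 5.65 CPM, also without overlap with EV, as 8.39% of all genes did, and a log2 difference of 0.87 ± 0.45 (edgeR FDR = 0.535). These differences did not pass the test.

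Ordered by mean level of AT5G50360, ABF3 and ABF1 were followed by ZAT6 with 8.54 ± 3.14 CPM, MYBR1 with 5.76 ± 2.56 CPM and GBF2 in batch 3 with 5.62 ± 1.90 CPM (SD, n = 3 each). EV of batch 1 stood in the middle of the order with 5.04 ± 1.87 CPM, and HSFA6A in batch 2, with 2.61 ± 0.779 CPM, and EV of batch 2, with 1.96 ± 1.23 CPM, closed it. From ZAT6 down, neighbors in this order overlapped in their libraries. The lowest ABF1 library, at 44.7 CPM, lay above the highest ZAT6 library, and the lowest ABF3 library, at 101 CPM, lay just above the highest ABF1 library, at 99.1 CPM, in another batch.

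**Figure D4:**
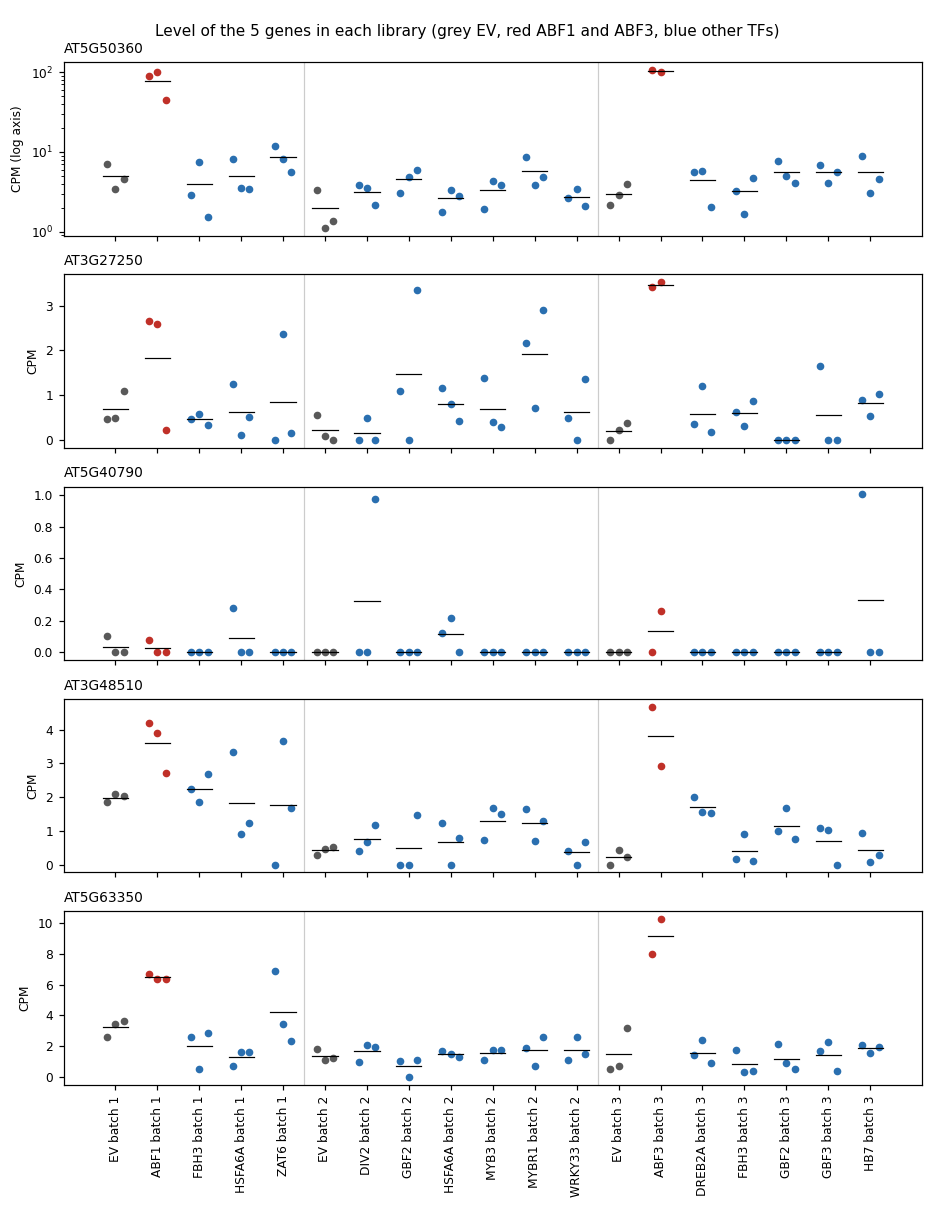
CPM of the 5 genes in all 56 libraries, by group, with EV in grey, ABF1 and ABF3 in red and the other TFs in blue. Points are libraries, short lines are group means and vertical lines separate batches; the axis is logarithmic for AT5G50360 and linear for the others.

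AT3G48510 was also tested in all 14 comparisons, with a positive difference in 11, between -0.22 and 2.86. With DREB2A, an AP2/ERF factor of drought and heat responses, it measured 2.00, 1.57 and 1.54 CPM (62, 43 and 44 counts), against 0, 0.424 and 0.224 CPM (0, 12 and 7 counts) in EV of batch 3. The DREB2A libraries were close to each other and all above EV, as were those of 11.7% of all genes. The log2 difference was 2.86 ± 0.86 (SE, edgeR FDR = 0.106), and DESeq2 called it (2.83, FDR = 0.00359). Against the other TF libraries of batch 3 in place of EV the difference was 0.62, and over all alternatives the FDR ran from 0.00359 to 0.974.

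With GBF2 in batch 3, AT3G48510 measured 0.986, 1.67 and 0.757 CPM, again above all EV libraries, as were 14.5% of all genes. The log2 difference was 2.30 ± 1.00 (SE, edgeR FDR = 0.177). DESeq2 called this difference (FDR = 0.0466), and against the other TF libraries of the batch it turned to -0.12, with an FDR from 0.0466 to 0.966 over the alternatives. With GBF2 in batch 2 the gene was at 0 in 2 libraries and at 1.47 CPM in the other, and the log2 difference was 0.20 ± 1.57. In batch 2, the MYB3 and the MYBR1 libraries were likewise all above EV, beside 16.4% and 15.1% of all genes, with log2 differences of 1.62 ± 0.92 and 1.51 ± 0.99 (SE, edgeR FDR = 0.378 and 0.451).

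AT3G27250 could be tested in 8 of the 14 comparisons. With MYBR1 it measured 2.17, 0.714 and 2.89 CPM (17, 8 and 29 counts), against 0.551, 0.0935 and 0 CPM (8, 2 and 0 counts) in EV. The groups did not overlap, as for 15.1% of all genes. The log2 difference was 3.16 ± 1.36 (SE, edgeR FDR = 0.179), and DESeq2 called it (3.23, FDR = 0.0429). The gene did not pass the filter on low counts in the EV libraries alone, nor with DIV2, MYB3 or WRKY33 in this batch. It can have passed it with MYBR1 through the libraries where it was high, so nothing is read from this call. The difference was 5.06 without EV batch 2 replicate 1 and 1.32 against the other TF libraries of the batch (edgeR FDR = 0.113 and 0.791), and the FDR ran from 0.0429 to 0.791 over its alternatives. With HB7, a class I homeodomain-leucine zipper factor, it measured 0.898, 0.545 and 1.03 CPM against 0, 0.212 and 0.384 CPM, also without overlap, as for 13.3% of all genes, with a log2 difference of 1.95 ± 1.27 (edgeR FDR = 0.477).

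With GBF2, AT3G27250 had 17, 0 and 48 counts in batch 2, against 8, 2 and 0 counts in EV. In batch 3 it had 0, 0 and 0 counts, against 0, 6 and 12 counts in EV. A count of 0 allows up to 3 counts, or 0.0911 to 0.106 CPM in the 3 GBF2 libraries of batch 3, and covers counting error only. As 1 EV library of batch 3 was at 0 as well, the groups overlapped, and no fold is given. The difference did not pass the edgeR test (FDR = 0.146).

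AT5G63350 had no comparison with an unadjusted p under 0.05 outside ABF1 and ABF3. It was tested in all 14, with log2 differences from -1.26 to 0.39 and an edgeR FDR of 0.682 or more. With HSFA6A, a heat shock factor, it measured 0.698, 1.61 and 1.62 CPM in batch 1, below all EV libraries at 2.57, 3.43 and 3.67 CPM, as were 7.85% of all genes (log2 difference -1.26 ± 0.67, edgeR FDR = 0.965). In batch 2, HSFA6A libraries measured 1.71, 1.47 and 1.28 CPM and overlapped EV (0.14 ± 0.66). With GBF2 in batch 2 it measured 1.02, 0 and 1.12 CPM, below EV by a narrow margin, as for 18.5% of all genes (-0.96 ± 1.08, edgeR FDR = 0.704).

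AT5G40790 was at 0 in 48 of 56 libraries. It had 28 counts in HB7 replicate 1, 14 in DIV2 replicate 3 and 8 in ABF3 replicate 2, and 3 or fewer in the other 5 libraries where it was seen. In each of those 3 groups, all other libraries were at 0, so that the counts belonged to single libraries. At this depth a difference between groups was not detectable.

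**Figure D5:**
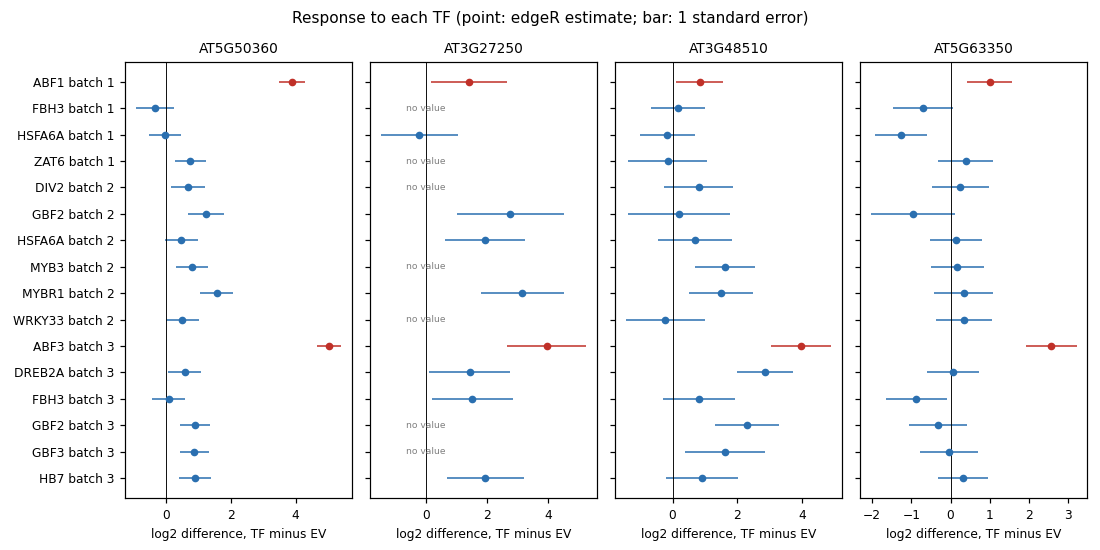
Log2 difference (TF minus EV of the batch) of 4 members in the 16 comparisons, with the edgeR estimate as a point and 1 standard error as a bar, ABF1 and ABF3 in red and other TFs in blue. "No value" marks comparisons that did not pass the filter on low counts and the GBF2 comparison of batch 3 in which all TF libraries of AT3G27250 were at 0.

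For the 3 TFs assayed in 2 batches, an interaction term tested whether the response differed between batches. None of the 11 tested pairs of member and TF differed at an FDR under 0.05 by edgeR, beside 0% of all genes for FBH3, 4.88% for GBF2 and 5.76% for HSFA6A, and 1 pair had an unadjusted p under 0.05. That pair was AT5G63350 with HSFA6A, with a log2 difference of 1.39 ± 0.61 between batch 2 and batch 1 (SE, edgeR FDR = 0.232). Over all genes tested, such a p was held by 1150 of 19338 for FBH3, 3331 of 19450 for GBF2 and 3266 of 18592 for HSFA6A. DESeq2 called 0 pairs as well. For AT5G50360, the response in the later batch minus that in the earlier was 0.50 ± 0.80 with FBH3, -0.36 ± 0.79 with GBF2 and 0.57 ± 0.62 with HSFA6A.

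Genes of the core ABA pathway, listed as 14 receptors, 9 clade A PP2C phosphatases, 3 SnRK2 kinases and 5 bZIP factors, were counted in the same fits. DIV2 induced 11 of 24 tested (beside 8.71% of all genes), GBF2 in batch 2 induced 10 of 23 and repressed 1 (5.56% and 7.2%), MYBR1 induced 8 of 24 and repressed 1 (6.04% and 5.87%), and MYB3 induced 6 of 24 and repressed 1 (6.32% and 4.32%). The PP2C phosphatases, which hold the kinases inactive, made up 6, 7, 6 and 4 of the induced genes. These 4 comparisons share the 3 EV libraries of batch 2. The PP2C genes had lower mean levels in EV of batch 2 than in EV of batches 1 and 3. For PP2CA (AT3G11410) these were 39.7 CPM against 83.2 and 79.1 CPM. With DIV2, GBF2, MYBR1 and MYB3 in batch 2 it measured 69.1, 78.6, 95.3 and 69.4 CPM. The part of the low EV level in these calls was not tested. GBF2 in batch 3 induced and repressed 0 of 24 by edgeR (4.42% and 4.43% of all genes), and DESeq2 called 0 induced and 1 repressed. Of these 24, 6 had an unadjusted edgeR p under 0.05, beside 4499 of 19482 genes tested. FBH3 induced 3 of 25 core genes in batch 1 and 4 of 25 in batch 3, all receptors (4.58% and 3.52% of all genes). It repressed 1, a bZIP gene, in batch 1 and 0 in batch 3 (1.66% and 0.801%). DREB2A induced 2 of 24, both receptors (1.97%). ZAT6, WRKY33 and HB7 each induced 1 of 24 (1.47%, 5.02% and 3.43%), and HSFA6A in batch 2 induced 1 of 23 (2.27%). GBF3 and HSFA6A in batch 1 induced 0 of 24 (0.00523% and 0.0053%). Whether the list and the members differ in their response was not tested. With ABF1, 2 of 23 core genes were induced and with ABF3 6 of 23, beside 0.48% and 1.58% of all genes, and DESeq2 called 4 and 9. The 2 with ABF1 and 5 of the 6 with ABF3 were PP2C genes, among them PP2CA (AT3G11410), with log2 differences of 1.47 ± 0.25 and 2.39 ± 0.27 (SE). ABF1 and ABF3 induced 0 of 7 receptors and 0 of 3 kinases tested.

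The genes whose levels were most like those of a member were found by Pearson's r over the 19 group means of log2 CPM, each centered on the mean of its batch, among genes with a mean log2 CPM of at least 1. For AT5G50360 these were AT3G07255 (r = 0.967), the ferritin gene FER1 (AT5G01600, r = 0.956) and PP2CA (r = 0.939). Without the ABF1 and ABF3 groups the same pairs had r = 0.829, 0.770 and 0.816. For AT5G63350 the nearest was GPAT7 (AT5G06090, r = 0.880), for AT3G48510 AT5G23330 (r = 0.846) and for AT3G27250 APS4 (AT5G43780, r = 0.833). Between the members, r ran from 0.173 for AT5G40790 and AT3G48510 to 0.772 for AT5G50360 and AT5G63350, and the latter pair had r = 0.315 without ABF1 and ABF3. The nearest genes were picked from 14292 or 14293 candidates over 19 groups. The groups of a batch also share the mean on which they were centered, so these values are a description.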

How the data were processed

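The authors used HISAT2 (2.0.5 in the submitters' processing notes) to place the reads on TAIR10 and GenomicFeatures with GenomicAlignments to count them, and the deposited values are raw counts per gene; whether strand was used is not given in the sources used here. Their filter on genes that respond to cycloheximide was not repeated. Each TF and batch group entered a fit together with the 9 EV libraries, with batch as a covariate after the study's TF+Batch model. The authors fitted theirs with DESeq2 at an adjusted p under 0.05, and edgeR is the main test here. The quasi-likelihood test of edgeR (4.0.16, in R 4.3.3) was used with TMM scaling and filterByExpr at a count of 10. P-values were adjusted by Benjamini-Hochberg over all genes tested, with an FDR of 0.05. Shares of all genes called are those of edgeR, and none was counted for DESeq2. Differences between batches were tested by the interaction term. SE is the log2 difference divided by the root of its F statistic. CPM came from the counts and TMM factors of the 56 libraries together. Group means of log2 CPM used a prior count of 2. Promoters were read from TAIR10.1 (RefSeq), and coding sequences were compared by translated search (BLAST+ 2.17.0). Alternatives were DESeq2 1.42.0, its size factors, no filter, other sets of control libraries, a replicate block, leaving out each library, and, added after seeing the data, leaving out 4 loci near ribosomal RNA genes.

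The 5 members and the lists of core ABA genes, markers and words were chosen with earlier results of these data known. The genes named are the 5 members, the genes most like each of them, and the core list as counts; PP2CA was named with its values because it is among the genes most like AT5G50360. Of 55 replicate pairs 0 were identical, and the lowest chi-square per degree of freedom was 4.11.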

Additional observations from a re-analysis of the deposited data

How the results depend on the processing

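Outside ABF1 and ABF3, 0 members were induced and 0 repressed in the main edgeR fits. DESeq2 gave 4 induced. EV of the same batch only, the single model over all libraries and the block each gave 1, AT5G50360 with MYBR1, and the fits without 1 library each gave 0 to 1 induced and 0 to 0 repressed. Against the remaining TF libraries of a batch instead of EV, 1 member was called repressed, AT3G27250 with GBF2 in batch 3, where all 3 GBF2 libraries were at 0. The same setting turned AT3G48510 with GBF2 in batch 3 from 2.30 to -0.12. The count of members whose response differed between batches was 0 in all 5 settings and in the 27 fits without 1 library. The count of members that differed between the EV batches was 1 with DESeq2 and 0 to 1 without 1 library each. The causes were not tested. Among the ABF values, the differences of AT5G50360 ran from 3.75 to 3.92 with ABF1 and from 4.38 to 5.32 with ABF3 over the settings, and no ABF value changed sign. The count over all 16 comparisons takes in the ABF1 and ABF3 values that chose the members and is no result. It was 3 induced and 0 repressed, and all 3 were with ABF1 or ABF3. With DESeq2 it was 9 induced, of which 5 were with ABF1 or ABF3. Which members it held changed with the setting. Nothing is read from this count or from its change, as the members were chosen from the ABF1 and ABF3 comparisons.

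Replicate numbers were not taken as pairs. In 1 of 16 comparisons, ABF3 with 2 pairs, every pair of same-numbered libraries had a correlation of deviations over 0.1. The mean r per comparison ran from -0.048 with HB7 to 0.176 with MYBR1, where the lowest pair was at 0.029 and the highest at 0.309. As 1 low pair decides this rule, it cannot tell whether a weaker pairing is present. With the replicate block, AT5G50360 with MYBR1 passed the threshold (1.63, edgeR FDR = 0.00592), 0 members were repressed, 0 differed between batches and 0 between the EV batches. The block took the ABF3 differences of AT3G48510 to 4.60 ± 2.65 and of AT5G63350 to 3.90 ± 1.18 (SE). Leaving out 4 ribosomal RNA genes themselves was planned but not run, as none of the tables used here has a row for them. Members with few counts limit the precision: AT3G27250 had a median of 6 counts in the EV libraries and AT5G40790 of 0.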

Other observations

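AT5G40800, the tandem neighbor of AT5G40790 on chromosome 5 and not among the 5 genes, has a coding sequence most like that of AT3G27250, with 83.6% identical residues over 55 codons. Its level was 0 to 1.18 CPM in the EV libraries (median 0.489), 0.0489 to 0.980 CPM in the 5 ABF1 and ABF3 libraries (median 0.750) and 0 to 2.97 CPM in the other 42 (median 0.296). It was at 0 in 15 of 56 libraries, and the ABF1 and ABF3 libraries lay within the range of the EV libraries. The small gene model AT5G50361, which lies in the AT5G50360 promoter window, had 85 counts over all 56 libraries. AT5G50350, the neighbor on the other side of AT5G50360, measured 16.8 to 26.6 CPM in the ABF1 and ABF3 libraries and 11.3 to 19.9 CPM in the EV libraries. In the other 42 libraries it measured 3.15 to 30.2 CPM, and the 3 ZAT6 libraries, at 28 to 30.2 CPM, lay above every ABF1 and ABF3 library.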
